A study of Mus musculus with 21 samples.

Results

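Milk protein genes were examined in RNA of mouse mammary organoids, which are cultures grown from primary mammary epithelial cells. They comprise 5 casein genes (Csn1s1, Csn2, Csn1s2a, Csn1s2b and Csn3), the whey protein genes Lalba and Wap, the milk fat globule genes Btn1a1 and Xdh, and Glycam1. These 10 listed genes were found by symbol among the 55536 gene IDs of the deposited count table. Sampling took place on day 0, day 14 and day 28 after the oncogene neuT, an activated form of rat Erbb2, was switched on. Both genotypes received it. Organoids homozygous for the ATLD1 allele of Mre11 (ATLD) are set against wild type organoids (WT). Mre11 encodes a nuclease of the complex that binds DNA double-strand breaks, and the allele is named after ataxia-telangiectasia-like disorder. The 6 groups, in each genotype day 0, day 14 and day 28, held 3 original libraries each. Replicate 1 of each WT day was also sequenced again alongside the ATLD samples, which gave 3 further libraries of the same cultures. The labels do not say how neuT is driven, how old the mice were or whether replicates came from separate animals, and p-values then cover only the spread between these samples, possibly a technical one. No culture without neuT at day 14 or day 28 is among the samples, and time in culture cannot be told apart from neuT.

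Caseins are the main proteins of milk. The alpha and beta caseins bind calcium phosphate, and kappa-casein, the product of Csn3, keeps the resulting micelles in suspension. In the mammary gland, prolactin acts through its receptor, the kinase JAK2 and the transcription factor STAT5, together with glucocorticoid and the factor ELF5, to switch these genes on in alveolar luminal cells during pregnancy and lactation. In bulk RNA, fewer secretory cells and less RNA per cell cannot be told apart.

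The libraries held 46331204 to 51757203 counts in ATLD, 30905703 to 50879106 in the original WT and 46532851 to 48887808 in the resequenced WT runs. Mre11a, the mouse gene of Mre11, stood at 14.0 to 17.0 counts per 1e+06 counts (CPM) in the 9 ATLD libraries, against 43.3 to 58.5 CPM in the 9 original WT libraries. As for the labelled cell type, 6 markers of mammary epithelium summed to 5672 to 6077, 4686 to 5403 and 4747 to 5536 CPM in ATLD on day 0, day 14 and day 28. In original WT libraries they summed to 3022 to 3498, 1837 to 2449 and 1809 to 2332 CPM. Of the 6, 4 were called lower in WT on each later day against day 0, where 15.1% and 12.4% of all genes were. Of the original WT libraries, day 14 replicates 1 and 3 and day 28 replicate 2 stood apart by low counts of GC-rich genes, with a slope of -0.61, -0.59 and -0.49 on the log2 scale per 0.1 of GC content, while the other original libraries had slopes of -0.33 to 0.42. Leaving these 3 libraries out ended no call of a milk gene and added 1, that of Csn3 between the genotypes on day 0.

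Promoter sequence of some members is shown first because the caseins lie side by side and share a regulator. RefSeq promoters of GRCm38.p6, from 250 bases before to 50 bases after the annotated start, were held for 6 of the 10 genes: Csn1s1, Csn2, Csn1s2a, Lalba, Wap and Glycam1. Csn3, Csn1s2b, Btn1a1 and Xdh are named only. Capitals mark the STAT5 motif TTCNNNGAA, which reads alike on both strands, and no other motif was searched. The alpha casein Csn1s1 (chr5:87665958-87666257, plus strand), the alpha casein Csn1s2a (chr5:87774200-87774499, plus strand), the beta casein Csn2 (chr5:87699376-87699675, minus strand) and the whey gene Lalba (chr15:98482634-98482933, minus strand) are given 5′ to 3′ in the direction of transcription.
Csn1s1: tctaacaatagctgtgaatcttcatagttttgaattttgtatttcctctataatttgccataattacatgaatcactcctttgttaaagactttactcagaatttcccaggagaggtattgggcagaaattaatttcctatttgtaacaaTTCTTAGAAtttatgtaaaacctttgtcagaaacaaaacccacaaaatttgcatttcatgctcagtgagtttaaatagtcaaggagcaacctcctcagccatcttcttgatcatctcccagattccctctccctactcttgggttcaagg
Csn1s2a: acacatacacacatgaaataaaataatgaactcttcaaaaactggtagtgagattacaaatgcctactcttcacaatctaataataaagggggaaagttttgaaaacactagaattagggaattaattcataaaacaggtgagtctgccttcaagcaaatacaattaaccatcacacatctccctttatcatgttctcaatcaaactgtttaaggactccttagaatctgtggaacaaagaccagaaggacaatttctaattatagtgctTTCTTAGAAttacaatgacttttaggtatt
Csn2: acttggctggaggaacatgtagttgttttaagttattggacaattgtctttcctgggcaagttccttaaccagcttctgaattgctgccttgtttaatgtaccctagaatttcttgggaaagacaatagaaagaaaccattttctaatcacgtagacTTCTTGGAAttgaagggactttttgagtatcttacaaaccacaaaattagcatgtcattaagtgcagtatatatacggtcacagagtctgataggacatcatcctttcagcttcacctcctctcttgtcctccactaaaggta
Lalba: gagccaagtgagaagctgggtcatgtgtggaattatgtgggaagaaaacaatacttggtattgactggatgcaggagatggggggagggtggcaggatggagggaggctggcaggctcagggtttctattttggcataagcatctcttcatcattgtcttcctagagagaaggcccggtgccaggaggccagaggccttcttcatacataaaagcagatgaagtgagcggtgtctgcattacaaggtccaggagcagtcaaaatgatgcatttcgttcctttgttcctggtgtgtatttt
By the RefSeq start, the motif stood 100 bases before the start in Csn1s1, 93 before it in Csn2 and 145 before it in Glycam1 (TTCCCAGAA). The GENCODE gene of Csn2 starts further upstream, so that by GENCODE the Csn2 motif lies inside the gene. In Csn1s2a the motif began 20 bases after the RefSeq start, which itself lies before the start of the GENCODE gene. Csn1s1 and Csn1s2a carried the same 9 letters, TTCTTAGAA, and Csn2 carried TTCTTGGAA. The Lalba and Wap windows held no match, which says only that these letters are not in those windows. Of all 32851 promoters of that length, 2726 (8.3%) held the motif. A match is a description and no evidence of binding.

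Levels are given as CPM after TMM scaling, per library or as the mean of a group's 3 original libraries ± SD. To compare genes with one another, the CPM was divided by the exonic length in kb. On that scale Csn3 was the leading milk gene in ATLD on every day, with means of 1178, 858 and 2649 CPM per kb on day 0, day 14 and day 28. In WT it led on day 0 with 1463 CPM per kb and stood at 4.55 and 5.72 CPM per kb on day 14 and day 28, under Xdh at 8.33 and 8.10 CPM per kb and close to Btn1a1 at 4.78 and 5.66 CPM per kb, from which it did not differ beyond the spread. Csn1s1 followed on day 0 in ATLD with 53.4 CPM per kb, ahead of Xdh (26.7) and Btn1a1 (21.6). In WT on day 0 the order after Csn3 was Xdh (19.5 CPM per kb), Btn1a1 (8.26), Csn1s1 (6.28) and Lalba (3.75). The order after Csn3 in ATLD was Btn1a1 (27.5), Csn1s1 (14.6) and Xdh (14.3) on day 14, and Csn1s1 (24.5), Xdh (21.6) and Btn1a1 (18.2) on day 28. Csn2, Csn1s2a, Csn1s2b, Wap and Glycam1 stayed under 1 CPM per kb in every group, and Lalba reached 2.25 CPM per kb in ATLD on day 28. Of all counts in a library, the 10 genes together took 0.424% to 0.595%, 0.306% to 0.402% and 0.897% to 1.14% in ATLD on the 3 days. In WT they took 0.656% to 0.768% on day 0, 0.0108% to 0.014% on day 14 and 0.0133% to 0.0137% on day 28. Csn3 made up 87.1% to 96.6% of those milk counts in the 9 ATLD libraries, 95.6% to 96.3% in WT on day 0, and 13.2% to 20.7% in WT on the later days.

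**Figure D1:**
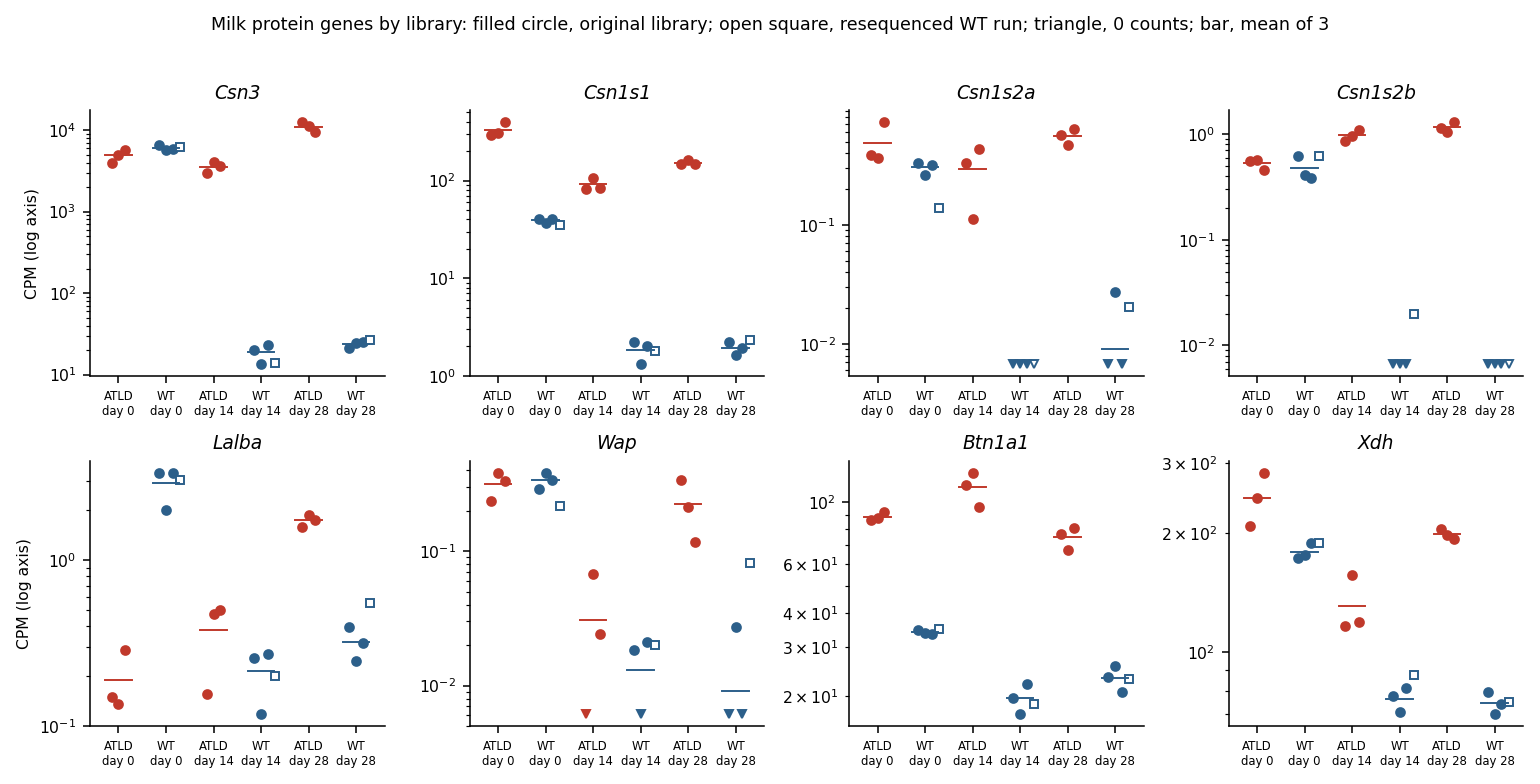
CPM (log axes) of the 8 milk protein genes that passed the low-count filter, in each library of the 6 groups, with ATLD in red and WT in blue. Csn3 lies at 13.5 to 25.2 CPM in the original WT libraries of day 14 and day 28, and at 3007 to 12454 CPM in all ATLD libraries.

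Csn3, the kappa-casein gene (ENSMUSG00000001622, mm10 chromosome 5, 87925579 to 87932665, plus strand), was far lower in WT on the later days, and not in ATLD. In ATLD it measured 3975, 4978 and 5719 CPM on day 0, 3007, 4030.2 and 3653 CPM on day 14, and 12454, 11188 and 9353 CPM on day 28. In WT it measured 6653, 5713 and 5851 CPM on day 0, 20.2, 13.5 and 22.9 CPM on day 14, and 21.4, 24.5 and 25.2 CPM on day 28. The ATLD libraries of day 28 were above every other library, and all WT libraries of the later days were below all the rest. ATLD day 14 and day 0 overlapped, with a log2 change of -0.46 ± 0.18 (SE) that was not called (adjusted p = 0.134). ATLD day 28 was higher than ATLD day 0 by 1.17 ± 0.18 (adjusted p = 1.22e-04) and higher than ATLD day 14 by 1.63 ± 0.19 (adjusted p = 1.66e-05). In WT the change was -8.33 ± 0.25 on day 14 against day 0, a 321-fold lower level (adjusted p = 2.57e-13), and -8.00 ± 0.25 on day 28 against day 0 (adjusted p = 7.23e-13). WT day 28 and day 14 overlapped, with 0.33 ± 0.19 (adjusted p = 0.55). An antisense gene that overlaps Csn3, 1700066N21Rik, had 1 count over all libraries.

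Csn1s1, an alpha casein gene (ENSMUSG00000070702, chromosome 5, 87666208 to 87682578, plus strand), already differed between the genotypes on day 0. ATLD libraries held 294, 311 and 396 CPM on day 0, 81.8, 108 and 84.5 CPM on day 14, and 149, 163 and 147 CPM on day 28. WT libraries held 40.4, 36.4 and 40.8 CPM on day 0, 2.20, 1.32 and 2.02 CPM on day 14, and 2.21, 1.64 and 1.90 CPM on day 28. Every ATLD library of any day was above every WT library. Unlike Csn3, Csn1s1 fell in ATLD too: the log2 change was -1.87 ± 0.16 on day 14 against day 0 (adjusted p = 6.87e-07) and -1.12 ± 0.16 on day 28 against day 0 (adjusted p = 3.39e-05). Day 28 was above day 14 in ATLD by 0.74 ± 0.16 (adjusted p = 0.00309). In WT it fell by 4.40 ± 0.19 on the log2 scale on day 14 (adjusted p = 1.04e-11) and by 4.35 ± 0.19 on day 28 (adjusted p = 1.80e-11), each against day 0. WT day 28 and day 14 overlapped (adjusted p = 0.926).

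The other alpha caseins were rare, and their raw counts are given. Csn1s2a (ENSMUSG00000061937, chromosome 5, 87774567 to 87788797, plus strand) had 18, 16 and 33 counts in ATLD on day 0, 15, 5 and 18 on day 14, and 25, 22 and 27 on day 28. In WT it had 16, 9 and 15 counts on day 0, 0 in each library of day 14, and 0, 1 and 0 on day 28. All WT libraries of the later days were below all other libraries, and the ATLD days overlapped except day 28 against day 14. WT day 14 was at least 14.9-fold lower than WT day 0, taking a floor of 3 counts over a group's 3 libraries (adjusted p = 1.17e-04). WT day 28 had 1 count against 40 on day 0, a ratio of day 0 over day 28 of 39.3 after scaling with a 95% counting interval of 6.66 to 1591 (adjusted p = 4.63e-04). No ATLD change of Csn1s2a passed the test, with adjusted p of 0.31, 0.762 and 0.134 for day 14 against day 0, day 28 against day 0 and day 28 against day 14.

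Csn1s2b (ENSMUSG00000061388, chromosome 5, 87808082 to 87824426, plus strand) had 26, 25 and 21 counts in ATLD on day 0, 39, 43 and 46 on day 14, and 50, 49 and 55 on day 28. In WT it had 30, 14 and 18 counts on day 0 and 0 in all 6 original libraries of the later days, with 1 count in the resequenced day 14 run. ATLD libraries of day 14 and day 28 were above those of day 0, and WT libraries of the later days were below all others. Csn1s2b rose in ATLD on day 14 against day 0 by 0.88 ± 0.23 (adjusted p = 0.0226) and on day 28 against day 0 by 1.13 ± 0.23 (adjusted p = 0.00216). The day 14 call was lost without either ATLD day 0 replicate 1 (0.93, adjusted p = 0.0536) or replicate 3 (0.80, adjusted p = 0.088), and without ATLD day 14 replicate 2 (0.89, adjusted p = 0.0615) or replicate 3 (0.79, adjusted p = 0.0924). WT was at least 23.1-fold lower on day 14 (adjusted p = 9.26e-07) and at least 20.3-fold lower on day 28 (adjusted p = 1.77e-06), each against WT day 0.

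Csn2, the beta casein gene and one of the most abundant transcripts of the lactating gland, was close to absent (ENSMUSG00000063157, chromosome 5, 87692624 to 87699630, minus strand). It had 1 to 8 counts in each ATLD library and 0 to 3 in each WT library, and the low-count filter removed it. Its 18 counts over the ATLD libraries of day 28 compare with 3 over the original WT libraries, a scaled ratio of 5.70 with a 95% counting interval of 1.66 to 30.2. The resequenced WT day 28 run by itself held 3 counts. Counting intervals cover counting error alone.

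Among the whey genes, Lalba, which encodes alpha-lactalbumin, the regulatory subunit of lactose synthase, had a course of its own (ENSMUSG00000022991, chromosome 15, 98480400 to 98482721, minus strand). ATLD libraries held 0.151, 0.135 and 0.286 CPM on day 0, 0.155, 0.473 and 0.504 CPM on day 14, and 1.59, 1.87 and 1.74 CPM on day 28. WT libraries held 3.36, 2.0 and 3.32 CPM on day 0, 0.257, 0.118 and 0.274 CPM on day 14, and 0.395, 0.247 and 0.317 CPM on day 28. On day 0 every WT library was above every ATLD library, and on day 28 the order was the opposite. In ATLD it rose on day 28 by 3.17 ± 0.37 against day 0 (adjusted p = 6.37e-06) and by 2.20 ± 0.34 against day 14 (adjusted p = 2.55e-04). The ATLD change on day 14 against day 0, 0.96 ± 0.44, was not called (adjusted p = 0.206), although without ATLD day 14 replicate 1 it reached 1.34 (adjusted p = 0.0396). In WT it fell by 3.71 ± 0.35 on day 14 (adjusted p = 2.71e-07) and by 3.17 ± 0.34 on day 28 (adjusted p = 1.51e-06).

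Wap, the whey acidic protein gene (ENSMUSG00000000381, chromosome 11, 6635482 to 6638637, minus strand), was at or under 17 counts everywhere. It had 11, 17 and 15 counts in ATLD on day 0, 0, 3 and 1 on day 14, and 15, 10 and 5 on day 28. In WT it had 14, 13 and 16 counts on day 0, 1, 0 and 1 on day 14, and 0, 1 and 0 on day 28. Day 14 libraries were thus low in both genotypes, and day 28 separated the original libraries of the genotypes. The resequenced run of WT day 28 replicate 1 held 4 counts, where its original held 0. Wap fell in ATLD on day 14 against day 0 by 3.26 ± 0.62 (adjusted p = 0.00174) and was higher on day 28 than on day 14 by 2.77 ± 0.66 (adjusted p = 0.00787). With 4 counts in all on ATLD day 14, these values rest on single libraries: without ATLD day 14 replicate 2, which held 3 of them, they were -4.47 and 3.98, both still called. The scaled ratio of WT day 0 over WT day 14 was 24.05 with a counting interval of 6.27 to 205, and that of WT day 0 over WT day 28 was 42.3 with an interval of 7.19 to 1708. Those ratios rest on the original libraries. With the resequenced runs in place of replicate 1, the fitted log2 change on WT day 28 against day 0 was -2.94, against -4.98 in the main fit.

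In WT the fat globule genes had the smallest changes of the tested milk genes. Btn1a1 encodes butyrophilin, a membrane protein of the milk fat globule (ENSMUSG00000000706, chromosome 13, 23456992 to 23465901, minus strand). ATLD libraries held 86.1, 87.9 and 92.5 CPM on day 0, 115, 128 and 96.05 CPM on day 14, and 76.7, 67.4 and 80.7 CPM on day 28. WT libraries held 34.7, 33.8 and 33.6 CPM on day 0, 19.6, 17.2 and 22.2 CPM on day 14, and 23.4, 25.7 and 20.8 CPM on day 28. Every ATLD library was above every WT library. In ATLD, day 28 was lower than day 14 by a log2 change of -0.59 ± 0.12 (adjusted p = 0.00236), while day 14 against day 0 gave 0.35 ± 0.12 (adjusted p = 0.0724), although these groups did not overlap. That change was called higher with DESeq2 (0.36, adjusted p = 0.0457), with a GC content offset (0.36, adjusted p = 0.0222), with all 21 libraries (0.35, adjusted p = 0.0452) and without ATLD day 14 replicate 3 (0.45, adjusted p = 0.0272). In WT it fell by 0.79 ± 0.12 on day 14 (adjusted p = 6.77e-05) and by 0.55 ± 0.12 on day 28 (adjusted p = 0.00235).

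Xdh encodes xanthine oxidoreductase, a purine enzyme that binds butyrophilin in fat globule secretion (ENSMUSG00000024066, chromosome 17, 73883895 to 73950196, minus strand). ATLD libraries held 208, 245 and 284 CPM on day 0, 117, 157 and 119 CPM on day 14, and 204, 197 and 193 CPM on day 28. WT libraries held 173, 175 and 189 CPM on day 0, 77.4, 70.6 and 81.3 CPM on day 14, and 79.4, 69.8 and 73.9 CPM on day 28. Both genotypes were thus lower on day 14, and day 28 was between the earlier days in ATLD alone. The changes on day 14 against day 0 were -0.91 ± 0.12 in ATLD (adjusted p = 9.28e-05) and -1.23 ± 0.13 in WT (adjusted p = 6.36e-07). On day 28 against day 0 they were -0.31 ± 0.12 in ATLD (adjusted p = 0.0719; -0.42 and 0.0216 without ATLD day 0 replicate 1) and -1.27 ± 0.13 in WT (adjusted p = 5.62e-07). A gene on the same strand, CT025731.2, overlaps Xdh and had 32 counts over all libraries.

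Glycam1 encodes a mucin-like milk glycoprotein (ENSMUSG00000022491, chromosome 15, 103562759 to 103565081, minus strand). It had 1, 1 and 4 counts in ATLD on day 0, 1, 2 and 0 on day 14, and 4, 8 and 5 on day 28. It had 0 counts in all 9 original WT libraries and 1 in the resequenced WT run of day 0. The filter removed it, and on day 28 ATLD was at least 5.39-fold higher than WT by the same floor.

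**Figure D2:**
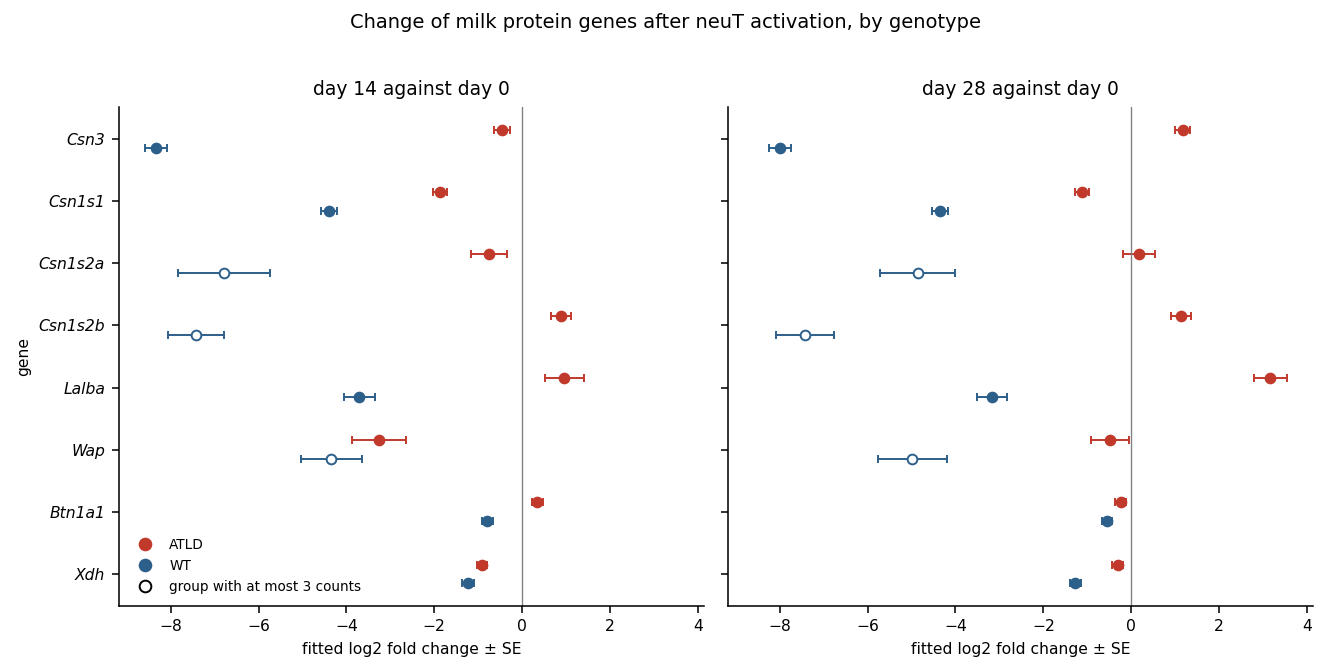
Fitted log2 change from day 0 with its SE for 8 milk protein genes, on day 14 and day 28, with ATLD (red) above WT (blue) in each row. All WT values lie below 0; open symbols mark groups with at most 3 counts, whose fitted value depends on the prior count and is no measured fold.

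Counted over the 8 genes that passed the filter, milk genes fell in WT and went both ways in ATLD. In ATLD on day 14 against day 0, 1 rose (Csn1s2b) and 3 fell (Csn1s1, Wap and Xdh), where 5.18% of all 18684 genes tested were called higher and 6.49% lower. On day 28 against day 0, 3 rose (Csn3, Csn1s2b and Lalba) and 1 fell (Csn1s1), with 14.1% of all genes called higher and 15.7% lower. On day 28 against day 14, 5 rose (Csn3, Csn1s1, Lalba, Wap and Xdh) and 1 fell (Btn1a1), with 8.25% of all genes called higher and 9.05% lower. In WT all 8 were lower on day 14 than on day 0, where 15.1% of all genes were called lower, and all 8 were lower on day 28 than on day 0, where 12.4% were called lower. Between WT day 28 and day 14, edgeR called 0 of the 8, 0 had an unadjusted p under 0.05, DESeq2 called 0, and 0.905% of all genes were called. Csn1s2b had 0 counts in both of these groups, Csn1s2a had 0 on day 14 and 1 on day 28, and Wap had 2 and 1. With so few counts these genes could not have been called, and they say nothing on a change between those days. The median log2 change of the 8 was -0.60, -0.03 and 0.84 in the ATLD comparisons in that order, against -0.03, -0.02 and 0.00 over all genes. It was -4.37 and -4.60 in WT on day 14 and day 28 against day 0, or -4.12 and -4.35 with genes at 0 set to their bound, against 0.01 and 0.02 over all genes. Rare genes such as Csn1s2a and Csn1s2b passed the filter through the groups in which they were high, so these counts and medians describe the 8 and are no test of the group. Comparisons with day 0 share its libraries.

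Set against WT, ATLD organoids had higher levels of most milk genes on the later days, and a mixed pattern on day 0. On day 0, 4 of 8 were higher in ATLD (Csn1s1, Csn1s2a, Btn1a1 and Xdh) and 1 was lower (Lalba), where 26.1% of all 18844 genes tested were called higher and 29.5% lower. Csn1s1 was 8.75-fold higher, with a log2 difference of 3.13 ± 0.19 (adjusted p = 3.96e-10), and Btn1a1 differed by 1.39 ± 0.13 (adjusted p = 9.87e-08). Lalba differed by -4.10 ± 0.40 (adjusted p = 1.78e-07), a 17.1-fold lower level in ATLD. Csn3 averaged 4890.4 ± 875 CPM in ATLD and 6072 ± 508 CPM in WT, and the groups overlapped, with -0.28 ± 0.21 (adjusted p = 0.249). Without the 3 WT libraries with low counts of GC-rich genes, the difference of Csn3 was -0.39 and called (adjusted p = 0.046), and with a GC content offset it was 0.05 and not called. The ATLD libraries and the resequenced WT runs, which form 1 sequencing batch with a single WT library per day, gave by themselves 3.30 for Csn1s1, 1.40 for Btn1a1, -3.92 for Lalba and -0.31 for Csn3.

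The remaining day 0 calls rested on few libraries. Csn1s2a differed by 1.61 ± 0.64 (adjusted p = 0.0421) with the batch term, from 18, 16 and 33 counts in ATLD against 16, 9 and 15 in WT. Without the batch term it was 0.67 (adjusted p = 0.166), and limma voom with the culture as a random block gave 1.31 (adjusted p = 0.0552). Without WT day 0 replicate 1, which was also resequenced, the difference turned to -0.20 (adjusted p = 0.859). Leaving out WT replicate 2, WT replicate 3 or ATLD replicate 3 also ended the call, with 1.61, 1.61 and 1.22 (adjusted p = 0.0515, 0.0525 and 0.128). Within the second batch, where WT is 1 library, it was 1.85, with no replicate check of WT. Xdh differed by 0.37 ± 0.13 (adjusted p = 0.0249) and lost the call without WT replicate 1 (0.32, adjusted p = 0.193) or ATLD replicate 3 (0.25, adjusted p = 0.126), and was 0.43 within the second batch.

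On day 14, 6 of 8 milk genes were higher in ATLD and 0 were lower, where 30.1% of all genes were called higher and 35.0% lower. Csn3 averaged 3563 ± 517 CPM in ATLD and 18.9 ± 4.84 CPM in WT, a log2 difference of 7.70 ± 0.26 (adjusted p = 2.18e-14). Csn1s1 averaged 91.3 ± 14.1 CPM in ATLD and 1.85 ± 0.465 CPM in WT, a difference of 5.63 ± 0.21 (adjusted p = 6.03e-14). Over the original libraries Csn1s2a was at least 14.0-fold and Csn1s2b at least 47.0-fold higher in ATLD, with 38 and 128 counts against 0 in WT. The fit of all 21 libraries called both (adjusted p = 2.72e-05 and 2.33e-08). The resequenced WT day 14 run held 0 and 1 counts of them. Within the second batch Csn1s2b differed by 5.49 on the log2 scale. Btn1a1 was higher by 2.55 ± 0.13 (adjusted p = 7.69e-12) and Xdh by 0.66 ± 0.13 (adjusted p = 2.76e-04). Lalba, with 0.63 ± 0.44 (adjusted p = 0.221; 1.01 and 0.0356 without ATLD day 14 replicate 1), and Wap, with 4 counts in ATLD against 2 in WT, were not called. Within the second batch the differences were 8.06 for Csn3, 5.74 for Csn1s1, 2.66 for Btn1a1 and 0.65 for Xdh.

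On day 28 all 8 tested genes were higher in ATLD, where 29.3% of all genes were called higher. Csn3 averaged 10998 ± 1559 CPM in ATLD and 23.7 ± 2.03 CPM in WT, which is 462-fold (8.85 ± 0.27 on the log2 scale, adjusted p = 7.24e-15). Csn1s1 averaged 153 ± 9.09 CPM in ATLD and 1.92 ± 0.281 CPM in WT, which is 75.3-fold (adjusted p = 2.16e-14). Over the original libraries Csn1s2a had 74 counts in ATLD against 1 in WT, a scaled ratio of 70.3 with a counting interval of 12.2 to 2815. Csn1s2b was at least 48.8-fold higher there, with 154 counts against 0. The resequenced WT day 28 run held 1 and 0 counts of them. Within the second batch Csn1s2a differed by 4.63 on the log2 scale. Lalba was higher by 2.02 ± 0.36 (adjusted p = 7.96e-05), Btn1a1 by 1.70 ± 0.13 (adjusted p = 1.79e-09) and Xdh by 1.34 ± 0.13 (adjusted p = 8.73e-08). Wap had 30 counts in ATLD against 1 in the original WT libraries and 4 in the resequenced WT run (2.85 ± 0.78 on the log2 scale, adjusted p = 0.00384). Its fitted difference was 4.41 without the batch term, 4.45 without WT day 28 replicate 1, and 1.47 within the second batch, where WT is that 1 run. The second batch by itself gave 8.72 for Csn3, 6.07 for Csn1s1, 1.69 for Lalba, 1.74 for Btn1a1 and 1.44 for Xdh. The median log2 difference of the 8 genes was 0.20, 4.09 and 4.42 on day 0, day 14 and day 28, or 3.18 and 4.23 on the later days with genes at 0 in WT set to their bound, against -0.04, -0.07 and -0.05 over all genes.

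**Figure D3:**
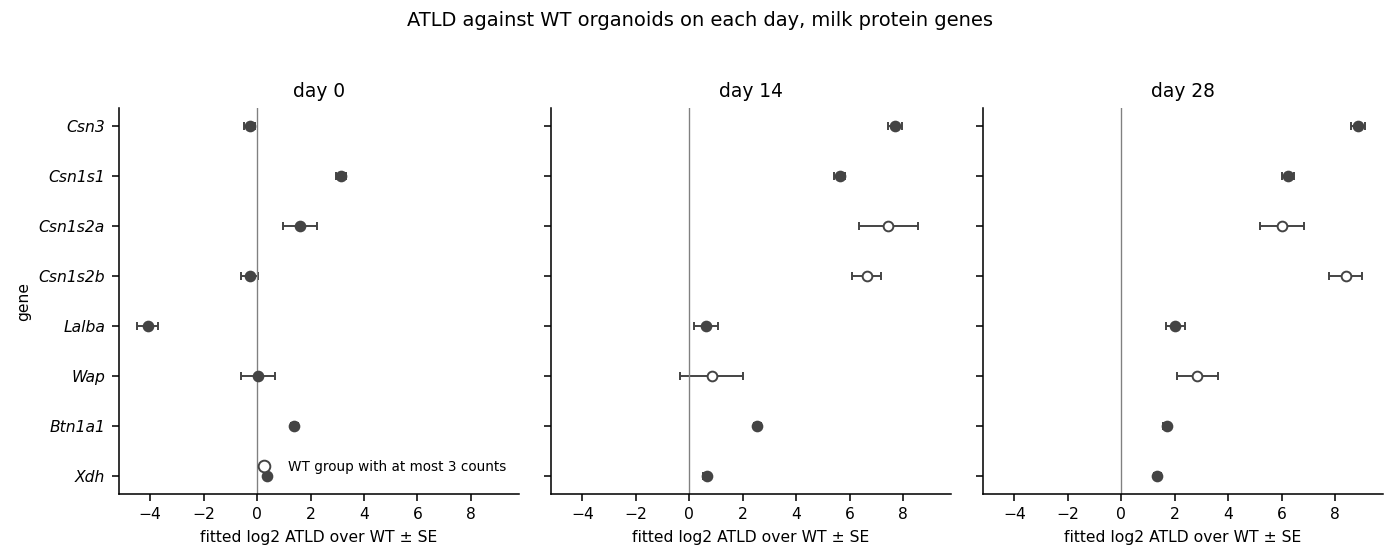
Fitted log2 level in ATLD over WT with its SE for 8 milk protein genes on day 0, day 14 and day 28, where open symbols mark WT groups with at most 3 counts. Lalba lies at -4.10 on day 0 and at 2.02 on day 28, and Csn3 at -0.28 on day 0 and 8.85 on day 28.

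The change with time itself was compared between the genotypes as a difference of log2 changes, ATLD minus WT. From day 0 to day 14 it was called for 6 of 8 milk genes, all more positive in ATLD, where 10.8% of all genes were called more positive. From day 0 to day 28 it was called for 7 of 8, again all more positive in ATLD, where 13.5% were called so. Csn3 gave 7.87 ± 0.29 on day 14 (adjusted p = 5.08e-12) and 9.17 ± 0.30 on day 28 (adjusted p = 2.62e-12). For Lalba it was 4.67 ± 0.57 (adjusted p = 7.91e-06) and 6.33 ± 0.51 (adjusted p = 5.02e-08), and for Csn1s1 2.53 ± 0.23 (adjusted p = 2.81e-07) and 3.22 ± 0.24 (adjusted p = 1.72e-08). Xdh did not pass on day 14 (0.32 ± 0.18, adjusted p = 0.231) and passed on day 28 (0.96 ± 0.18, adjusted p = 4.41e-04). Btn1a1 passed on day 14 (1.14 ± 0.17, adjusted p = 7.20e-05) and not on day 28 (0.30 ± 0.17, adjusted p = 0.212). Wap was the other gene that did not pass on day 14, with an adjusted p of 0.589. These differences were fitted without a batch term, which takes the batch effect as equal on all days. Between the original and resequenced runs of WT replicate 1, the GC slope went from -0.33 to 0.07 on day 0. On day 14 it went from -0.61 to 0.20, and on day 28 from 0.06 to 0.15. A batch effect that differs by day cannot be told apart from a difference of this kind.

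The 5 caseins lie within 266 kb of chromosome 5, and their neighbours were looked at next. Within 500 kb on either side and between the caseins the annotation holds 49 other genes, of which 21 had any count and 5 passed the filter. In WT, Sult1d1 (a sulfotransferase), Odam (an enamel matrix protein gene) and Smr2 (a salivary gene) were called lower on both later days against day 0. Of all genes, 15.1% were called lower on day 14 and 12.4% on day 28. The other tested neighbours, Gm42794 (adjusted p = 0.0551 and 0.672) and Amtn (adjusted p = 0.393 and 0.0857), were not called in WT on either day. Smr2 was rare in WT, with 26 counts over the libraries of day 0. Smr2 averaged 0.455 ± 0.0233, 0.555 ± 0.163 and 3.23 ± 0.457 CPM in ATLD on the 3 days and 0.188 ± 0.112, 0 and 0 CPM in WT. It rose in ATLD on day 28 against day 0 by 2.82 ± 0.28 (adjusted p = 7.65e-06). Amtn, the amelotin gene, averaged 0.160 ± 0.0807, 0.587 ± 0.0418 and 4.39 ± 0.569 CPM in ATLD and at most 0.0350 CPM in WT. It rose in ATLD by 1.85 ± 0.40 on day 14 (adjusted p = 0.00629) and by 4.74 ± 0.35 on day 28 (adjusted p = 1.24e-07). Neither casein neighbour of Csn2 shared its level: Csn2 averaged 0.0198 CPM per kb in ATLD on day 28, against 24.5 CPM per kb for Csn1s1 and 0.159 for Csn1s2a. Gm42794, an unnamed gene model, also rose in ATLD on day 28 (2.24 ± 0.39, adjusted p = 3.51e-04), where 14.1% of all genes rose. Against ATLD day 0, Odam and Sult1d1 did not pass as higher in ATLD on either later day. Sult1d1 was lower there on day 14 (-1.54 ± 0.47, adjusted p = 0.0475). Against WT of the same day, both were called higher in ATLD on day 14 and day 28. Odam differed by 2.61 ± 0.46 and 2.47 ± 0.46 (adjusted p = 8.05e-05 and 1.47e-04). Sult1d1 had 20 and 36 counts in ATLD against 0 and 2 in original WT libraries (adjusted p = 2.26e-04 and 1.44e-04). Smr2, Amtn and Gm42794 were also called higher than in WT on day 28, where 29.3% of all genes were.

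**Figure D4:**
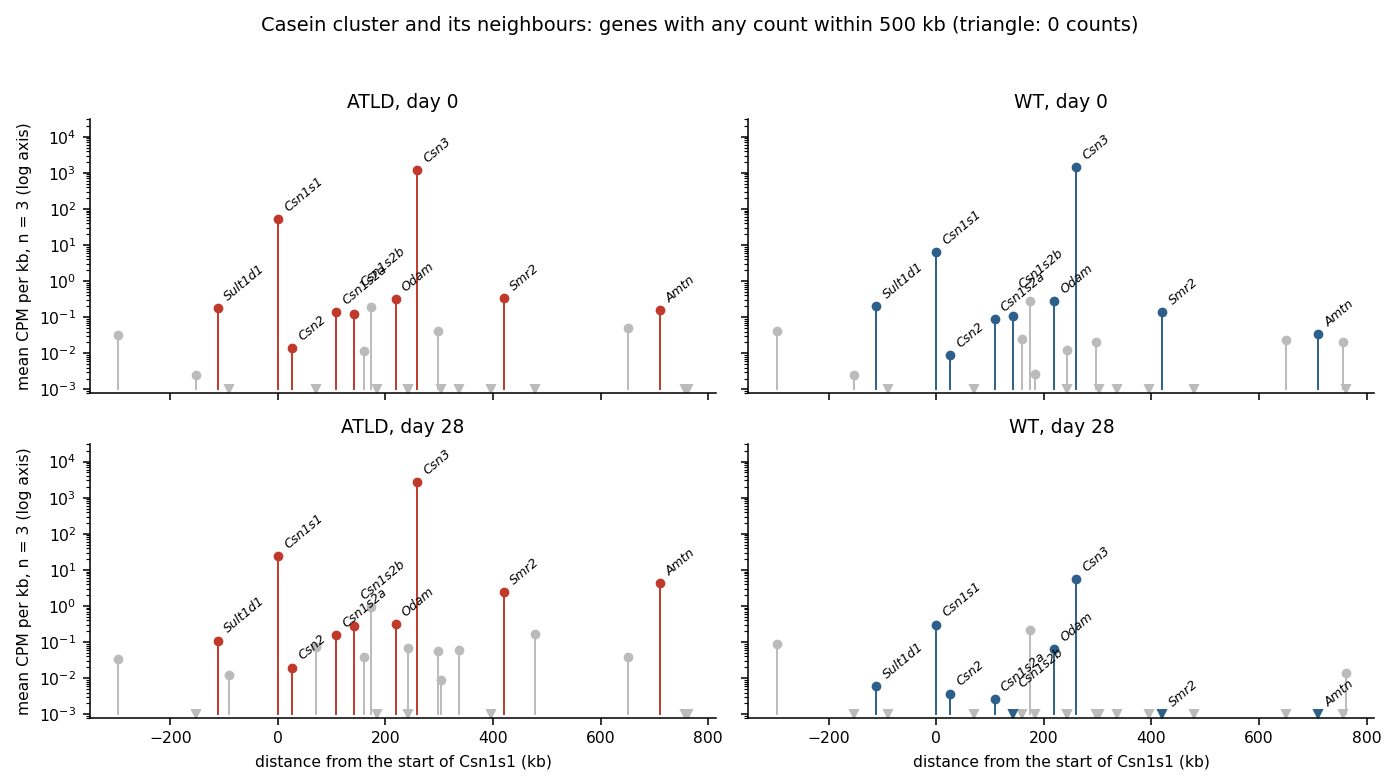
Mean CPM per kb of exon (log axis, 3 original libraries) of the caseins and of neighbouring genes with any count, by distance from the start of Csn1s1, in ATLD (left) and WT (right) on day 0 and day 28. Csn3 and Csn1s1 have the highest means in each panel, although in WT on day 28 Csn1s1 (0.307) is close to the neighbour Gm42794 (0.221). In that panel Csn3 and Csn1s1 are the only casein genes above 0.01 CPM per kb.

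Across the 18 original libraries, the tested caseins varied together on the log2 scale, with Pearson's r of 0.93 to 0.97 between any 2 of them. That was not particular to the caseins: Xdh had r of 0.83 to 0.94 with them, Btn1a1 0.80 to 0.90 and Wap 0.63 to 0.78. Lalba had r of 0.27 with Csn1s1, 0.54 with Csn3 and 0.03 with Btn1a1. These values describe libraries that fall into 6 groups and share genotype, day and batch. The 5 other genes most like Csn3 in that sense, among genes averaging 1 or more in log2 CPM, were Crispld2 (r = 0.995), P3h2 (0.992), Pde9a (0.991), Gm7694 (0.991) and Pmp22 (0.990). Crispld2, which encodes a secreted protein, averaged 488, 339 and 902 CPM in ATLD on day 0, day 14 and day 28, and 462, 3.74 and 5.09 CPM in WT. Pde9a, a cyclic GMP phosphodiesterase gene, averaged 44.4, 45.4 and 76.1 CPM in ATLD and 50.1, 7.996 and 9.66 CPM in WT.

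Genes of lactogenic signalling were counted in a list of 12, all tested. In ATLD, 1 was lower on day 14 against day 0, and 1 was higher and 2 were lower on day 28. In WT, 7 were lower on day 14 and 5 on day 28, and 0 were higher. The median log2 change on day 14 was -0.33 in ATLD and -0.64 in WT, against -0.03 and 0.01 over all genes. Of all genes, 5.18% were called higher and 6.49% lower in ATLD on day 14, 14.1% and 15.7% in ATLD on day 28, 15.2% and 15.1% in WT on day 14, and 12.3% and 12.4% in WT on day 28, so that the ATLD counts of the list were close to those of all genes. Elf5, the transcription factor of alveolar luminal cells, averaged 626 ± 67.1, 514 ± 22.8 and 664 ± 47.4 CPM in ATLD on the 3 days, and 270.2 ± 7.10, 13.5 ± 2.79 and 22.6 ± 1.62 CPM in WT. Its change from day 0 to day 14 differed between ATLD and WT by 4.04 ± 0.19 (adjusted p = 6.54e-11), and WT day 28 was above WT day 14 by 0.74 ± 0.13 (adjusted p = 0.00815). Id2, an inhibitor of helix-loop-helix factors, fell in WT by 1.24 ± 0.09 on day 14 (adjusted p = 1.55e-08). Cebpb, a transcription factor, rose in ATLD on day 28 by 1.14 ± 0.25 (adjusted p = 0.0022). Nr3c1, the glucocorticoid receptor, was lower in ATLD than in WT on day 14 (-0.71 ± 0.23, adjusted p = 0.0111) and day 28 (-0.91 ± 0.23, adjusted p = 0.00196). The kinase gene Jak2 was also lower on day 14 (-0.79 ± 0.19, adjusted p = 0.00143). Most called genes of the list went the other way: 7 were higher and 2 lower in ATLD than in WT on day 14, and 8 higher and 1 lower on day 28. Between the genotypes, 30.1% of all genes were called higher and 35.0% lower on day 14, and 29.3% and 34.9% on day 28. Nfib, a nuclear factor I gene, passed in no comparison of days or genotypes. The prolactin receptor gene Prlr and the STAT5 target Cish, named here after their values were seen, differed between the genotypes in opposite directions on day 0: Prlr averaged 72.5 ± 9.62 CPM in ATLD and 202.9 ± 5.06 CPM in WT (-1.28 ± 0.21, adjusted p = 4.86e-05), and Cish 46.4 ± 2.72 CPM in ATLD and 6.72 ± 0.555 CPM in WT (2.69 ± 0.17, adjusted p = 5.56e-10). In WT, Prlr fell by 2.61 ± 0.21 and Cish by 1.99 ± 0.16 on day 14 (adjusted p = 2.87e-08 and 3.63e-08). The remaining genes of the list went both ways on day 0. Socs2 averaged 25.7 ± 0.893 CPM in ATLD and 31.4 ± 0.881 CPM in WT, and Ghr 64.7 ± 1.56 and 76.3 ± 5.44 CPM. Stat5a averaged 64.8 ± 3.88 and 46.1 ± 4.14 CPM, and Stat5b 85.1 ± 5.95 and 57.2 ± 4.41 CPM. Of the 12, 3 were called higher in ATLD on day 0 and 1 lower, where 26.1% and 29.5% of all genes were.

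Of 12 listed genes of other secreted proteins found in milk, 11 were tested. On day 14 against day 0, 3 rose and 5 fell in ATLD (median log2 change -0.61), and 3 rose and 8 fell in WT (median -3.67), beside the shares of all genes given above. On day 28 ATLD exceeded WT in 9 and was lower in 1, where 29.3% of all genes were called higher and 34.9% lower. Ltf, which encodes the iron-binding lactoferrin, averaged 6264.5 ± 369, 2484 ± 333 and 11233 ± 1146 CPM in ATLD on the 3 days and 1395 ± 108.5, 26.3 ± 1.03 and 25.5 ± 2.78 CPM in WT. Lcn2, the siderophore-binding lipocalin, rose in ATLD by 1.21 ± 0.16 on day 28 (adjusted p = 1.54e-05) and fell in WT by 4.03 ± 0.17 (adjusted p = 1.8e-11). Wfdc18, a whey acidic protein domain gene, fell in WT by 3.69 ± 0.20 on day 14 (adjusted p = 1.55e-10), with -0.06 ± 0.18 in ATLD (adjusted p = 0.9). Muc15, a mucin of the fat globule membrane, fell in both genotypes, by 0.61 ± 0.17 in ATLD (adjusted p = 0.0305) and by 3.67 ± 0.19 in WT (adjusted p = 1.55e-10) on day 14. Pigr, the receptor that carries immunoglobulin A into milk, fell by 2.71 ± 0.16 in ATLD (adjusted p = 6.16e-09) and by 4.18 ± 0.18 in WT (adjusted p = 1.65e-11) on day 28. Spp1, the osteopontin gene, went the other way and rose on day 14 in ATLD (3.01 ± 0.15) and WT (3.19 ± 0.15), with a difference of -0.17 ± 0.19 between the genotypes (adjusted p = 0.597).

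Of 14 milk fat genes, 13 were tested: on day 14 against day 0, 1 rose and 5 fell in ATLD, and 1 rose and 7 fell in WT, with medians of -0.31 and -0.49. Of all genes, 5.18% rose and 6.49% fell in ATLD, and 15.2% rose and 15.1% fell in WT. Mfge8, a secreted fat globule protein, averaged 2273 ± 32.1, 2679 ± 392.2 and 3680.1 ± 451 CPM in ATLD on the 3 days and 1068 ± 129, 209 ± 90.4 and 292 ± 87.7 CPM in WT. Plin2, the coat protein of lipid droplets, rose in ATLD by 0.52 ± 0.12 on day 14 (adjusted p = 0.0093) and by 1.21 ± 0.12 on day 28 (adjusted p = 1.34e-06). The fatty acid synthesis genes Fasn and Acaca did not share that rise: Acaca fell in ATLD on day 28 by 0.47 ± 0.12 (adjusted p = 0.00719), and Fasn had -0.44 ± 0.32 (adjusted p = 0.332). Of 8 genes of lactose synthesis and transport, 0 rose and 4 fell in ATLD on day 14, and 1 rose and 3 fell in WT, with medians of -0.50 and -0.06, beside the same shares. B4galt1, the galactosyltransferase that Lalba's product directs to lactose, passed in no comparison of days or genotypes, with 159 ± 16.0 CPM in ATLD and 163 ± 3.65 CPM in WT on day 0. Folr1, a folate receptor, fell by 0.86 ± 0.17 in ATLD (adjusted p = 0.00184) and by 3.82 ± 0.19 in WT (adjusted p = 6.8e-11) on day 14. Slc30a2, the zinc transporter of milk, fell by 1.73 ± 0.16 in ATLD (adjusted p = 1.21e-06) and rose by 0.45 ± 0.15 in WT (adjusted p = 0.026) on day 14.

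**Figure D5:**
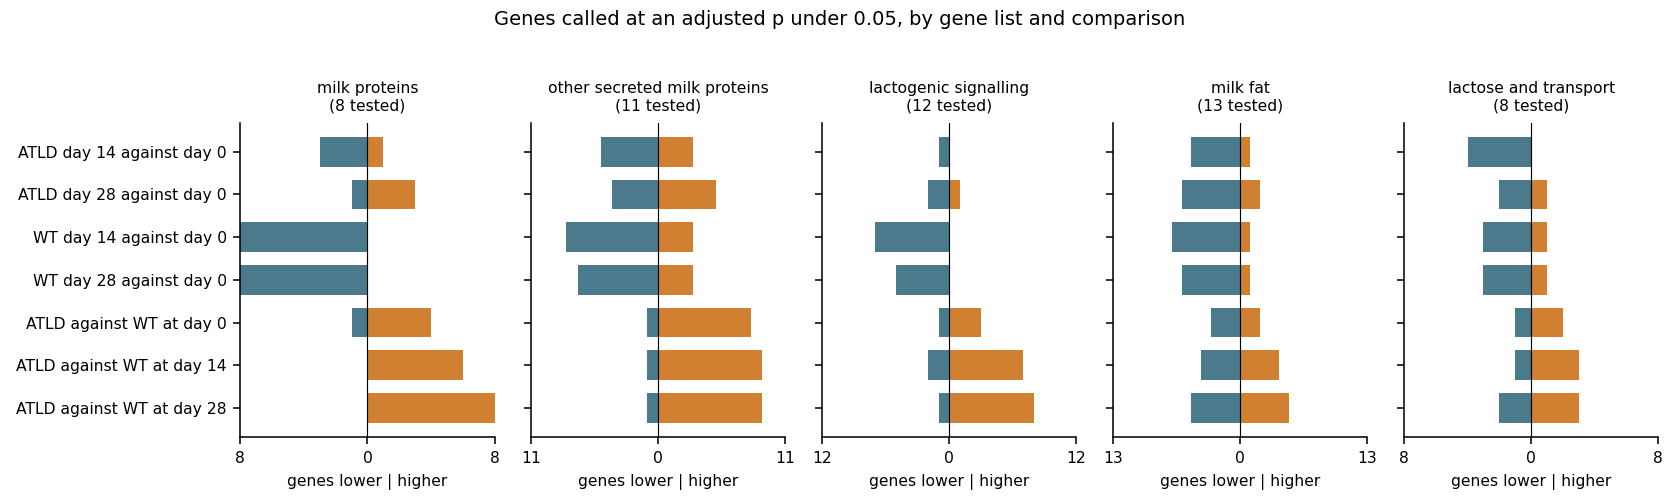
Number of genes called lower (left of 0) and higher (right of 0) in 5 lists and 7 comparisons, where higher means higher on the later day or in ATLD. In WT 8 of 8 tested milk proteins are lower on day 14 and day 28, and in ATLD 3 and 1 are.

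Markers of cell types also differed between groups, not all in the direction of the milk genes. The sum of 6 luminal progenitor markers, among them Elf5, was 2595 to 2728, 2747 to 3081 and 3324 to 3442 CPM in ATLD on the 3 days, and 1197 to 1258, 293 to 372 and 360 to 398 CPM in WT. Of these 6, 1 rose and 4 fell in WT on day 14, and 5 were higher and 0 lower in ATLD than in WT on that day. Of all genes, 15.2% rose and 15.1% fell in WT on day 14, shares that also stand beside the WT counts of the lists below. Between the genotypes on day 14, 30.1% of all genes were called higher in ATLD and 35.0% lower. The sum of 8 basal markers was 3814 to 4148, 2549 to 2565 and 2045 to 2263 CPM in ATLD, and 2174 to 2799, 4070 to 10046 and 4692 to 8915 CPM in WT. In WT on day 14 against day 0, 4 of these 8 rose and 4 fell, with a median log2 change of -0.15: the keratin genes Krt5 and Krt14 averaged 2655 ± 1243 and 2910.3 ± 1975 CPM on day 14, against 909 ± 148 and 1042 ± 177 CPM on day 0. Acta2, the smooth muscle actin gene, averaged 10.6 ± 2.34 CPM on WT day 14, against 282 ± 13.001 CPM on WT day 0. In ATLD 1 of the 8 rose and 4 fell on day 14, where 5.18% of all genes rose and 6.49% fell. The sum of 6 hormone-sensing luminal markers, among them Prlr, was 122.65 to 146, 119 to 144 and 95.1 to 116 CPM in ATLD, and 435 to 442, 240 to 288 and 224 to 249 CPM in WT, where 1 rose and 3 fell on day 14. None of the markers in these 3 sums was at 0 throughout a group. Adipocyte markers, 8 in all with 2 to 6 of them at 0 in every library of a group, summed to at most 0.387 CPM. The 7 macrophage and leukocyte markers summed to 2.22 to 3.34 CPM in ATLD and 6.76 to 12.1 CPM in the original WT libraries, but to 2.34 to 3.13 CPM in the resequenced runs of the same WT cultures. The 6 lung epithelial markers summed to 6.37 to 17.2 CPM in ATLD, 7.0 to 16.8 CPM in original WT and 0.301 to 3.07 CPM in resequenced WT. Levels of both lists thus differed between runs of the same WT cultures. The 6 fibroblast markers summed to 11.03 to 30.2 CPM in ATLD and 15.9 to 49.8 CPM in original WT (18.4 to 44.75 CPM resequenced), and the 6 endothelial markers to 1.26 to 2.28 CPM in ATLD and 1.0 to 2.68 CPM in original WT (0.674 to 1.67 CPM resequenced). The part of these lists, and of the mammary epithelium markers, in the milk gene changes was not tested.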

How the data were processed

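Polyadenylated RNA of 18 organoid samples and 3 resequenced WT runs was sequenced after a stranded library kit, per the labels' protocols. The authors deposited raw counts per gene, made with featureCounts on mm10, per the submitters' processing notes, which also name DESeq2. The aligner, the strand setting and the treatment of reads that match several genes are not stated in the labels or files used here, so reads of sense and antisense partners cannot be told apart. Gene names and positions came from GENCODE vM21, promoters from RefSeq GRCm38.p6.

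The 10 milk genes and the lists were chosen with earlier results of these data known. Of each list, at most 6 genes with the highest mean counts per length are named, besides the remaining genes of the lactogenic list. The neighbours of the caseins and 5 genes most like Csn3 are named by a fixed rule. Counts were filtered with filterByExpr (minimum count 10, minimum total 15), scaled by TMM and tested over all genes with edgeR 4.0.16 (quasi-likelihood F test, two-sided) in R 4.3.3, with limma 3.58.1 and DESeq2 1.42.0 as alternatives; called means a Benjamini-Hochberg adjusted p under 0.05. Days and the change with time were fitted on the 18 original libraries (12 residual degrees of freedom), genotypes on all 21 with a batch term (14). All ATLD libraries are in the second batch, so genotype and batch are separated by the 3 resequenced WT runs alone. These runs enter that fit beside their originals, so a culture with 2 runs counts with both. Its single batch term takes the batch effect as equal on all days. The comparison of the change with time has no batch term and rests on the same assumption. Fitted fold changes use a prior count of 0.125. A floor of 3 counts over a group and 95% exact intervals cover counting error only. The test was run before use on simulated data with 200 of 18684 genes changed. These data were simulated for WT day 14 against day 0, ATLD day 28 against day 0, and ATLD against WT on day 0 with a batch effect. Every simulated library was drawn independently, unlike the resequenced runs, which share a culture with their originals. The simulations have fewer changed genes than the real data and no GC shift, so they do not check error rates under the real conditions. Replicate numbers were not used as pairs in the main fits. Figures were drawn with matplotlib 3.10.9 in Python 3.11.15.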

Additional observations from a re-analysis of the deposited data

Results flagged for a closer look

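The change with time differed between ATLD and WT, by a test of the difference itself, for 6 milk genes on day 14 and for 7 on day 28, of 8 tested on each day. That test takes the batch effect as equal on all days. From day 0 to day 14 the difference of log2 changes, ATLD minus WT, was 7.87 for Csn3, 2.53 for Csn1s1, 6.04 for Csn1s2a, 8.30 for Csn1s2b, 4.67 for Lalba and 1.14 for Btn1a1. From day 0 to day 28 it was 9.17 for Csn3, 3.22 for Csn1s1, 5.04 for Csn1s2a, 8.54 for Csn1s2b, 6.33 for Lalba, 4.49 for Wap and 0.96 for Xdh. The values of Csn1s2a, Csn1s2b and Wap rest on WT groups with at most 3 counts, so their size depends on the prior count and is no bound. That of Wap on day 28 was 2.46 with the resequenced runs in place of replicate 1 and 6.43 without WT day 28 replicate 2, and that of Csn1s2a was 3.92 and 6.97. With 3 samples in a group, no sample was tested as standing apart from its group.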

How the results depend on the processing

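Of 966 combinations of a called result and an alternative, 948 kept their direction and call, 17 lost the call and 1 turned round. Of 340 combinations of a result not called and an alternative, 316 kept it, 9 became calls and 15 turned round. The count of milk genes called between the genotypes on day 0 was 5, and it was 3 with the second batch alone, where WT is 1 library assumed to vary like the ATLD groups, 4 without the batch term, with the replicate block or with limma voom, and 3 to 5 with 1 replicate left out (3 without WT replicate 1 and without ATLD replicate 3). With 1 replicate left out, 3 to 5 milk genes were called in ATLD on day 14 against day 0 (4 with all).
Of the differences not called between ATLD and WT on day 0, Csn1s2b turned to 0.19 with a GC content offset and 0.14 without the batch term, Csn3 to 0.05 with the GC offset, and Wap to -0.20 with DESeq2, -0.05 with the replicate block and -0.08 without the batch term. Xdh on WT day 28 against day 14 turned to 0.13 without the 3 WT libraries with low counts of GC-rich genes, an alternative chosen after seeing the data, as was a fit of days on all 21 libraries.
With 1 replicate left out, Csn1s2a between the genotypes on day 0 ranged from -0.20 to 1.79, Wap from -2.09 to 0.21 on day 0 and from -0.37 to 1.41 on day 14, and the difference in the change of Wap to day 14 from -0.13 to 1.65. Csn1s2a in ATLD on day 28 against day 0 ranged from 0 to 0.57, and on WT day 28 against day 14 Csn1s1 ranged from -0.14 to 0.2 and Xdh from -0.1 to 0.01. The cause was not tested. In 0 of 15 pairs of groups did every same-numbered pair of replicates correlate over 0.1 (r from -0.709 to 0.325). These are deviations from means of 3 libraries, some with low counts of GC-rich genes. They cannot show whether same-numbered samples share an origin. The block ended the calls of Csn1s2b on ATLD day 14 (adjusted p = 0.0501) and Xdh between the genotypes on day 0 (adjusted p = 0.0851).
Over all genes, 169 were called on WT day 28 against day 14, and 312 with DESeq2, 100 with the replicate block, 297 with a GC offset, 0 with the compared groups alone, 94 with the resequenced runs in place of replicate 1, 354 with all 21 libraries, 38 without the 3 libraries named above and 62 to 3817 with 1 replicate left out. On ATLD day 14, 2180 genes were called and 3502 with a GC offset. Between the genotypes on day 0, 10483 were called and 6927 without WT replicate 1. Depth limits Csn2, Glycam1, Wap and Csn1s2a, which rest on few counts.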
